A study of Mus musculus with 2 samples.

Results

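Midkine (*Mdk*) and pleiotrophin (*Ptn*), with 6 of their receptors and binding partners (*Ptprz1*, *Alk*, *Lrp1*, *Sdc3*, *Sdc4* and *Ncl*), were read across the cell types of *Nf1*-OPG mouse optic nerves. These 8 genes of the 32285 in the count files were chosen by gene symbol, and each symbol matched 1 gene. The study profiled single cells of optic nerves from 12-week-old C57BL/6 *Nf1* flox/mut; GFAP-Cre mice, which carry 1 floxed and 1 mutant *Nf1* allele and express Cre recombinase under the GFAP promoter, and which form optic pathway gliomas. Per the labels, tissue of 10 mice was pooled for each suspension, and debris and myelin were removed before capture. The 2 libraries, C-ON and FMC_new, carry the same genotype label, age and protocol, so they were treated as 2 samples of 1 condition. The title of C-ON holds the word control and that of FMC_new the word new, and the labels do not say what these words or FMC mean. There is no library from mice without the *Nf1* alleles or from treated mice among the samples analysed here. Every value below describes these 2 libraries only. FMC_new also held 1705 cells with pituitary hormone markers, 10.1% of its kept cells, so its values are not of nerve tissue alone.

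Midkine and pleiotrophin are the only 2 members of a family of secreted, heparin-binding growth factors that are abundant in the developing nervous system. They bind the chondroitin sulfate chains of the receptor protein tyrosine phosphatase zeta, encoded by *Ptprz1*, and are also known to bind the receptor tyrosine kinase Alk, the endocytic receptor Lrp1, the heparan sulfate proteoglycans syndecan-3 and syndecan-4, and nucleolin at the cell surface. In *Nf1*-mutant optic glioma, midkine is known as a neuronal factor that acts on T cells, whose chemokines act in turn on microglia and macrophages that support the tumor.

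In the main class assignment, *Ptprz1* and *Sdc3* stood at least 2 times higher in tumor-like cells than in any other class in both libraries. These were 2 of the 8 members, against 1.43% of the 14168 genes compared. For *Ptprz1* the lead of 2 times did not hold under every other class assignment, as given below. The promoters of both genes are shown first. Each sequence runs from 250 bases before to 50 bases after the RefSeq start of the gene on GRCm38.p6, 5′ to 3′ on the plus strand, which is the strand of both genes. The *Ptprz1* window is chr6:22875252-22875551 and the *Sdc3* window is chr4:130792287-130792586.
Ptprz1: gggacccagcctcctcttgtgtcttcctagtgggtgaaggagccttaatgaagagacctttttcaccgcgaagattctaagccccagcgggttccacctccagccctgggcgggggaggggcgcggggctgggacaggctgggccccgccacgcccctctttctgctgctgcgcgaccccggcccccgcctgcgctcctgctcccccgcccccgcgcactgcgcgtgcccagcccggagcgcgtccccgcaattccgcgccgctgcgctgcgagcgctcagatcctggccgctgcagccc
Sdc3: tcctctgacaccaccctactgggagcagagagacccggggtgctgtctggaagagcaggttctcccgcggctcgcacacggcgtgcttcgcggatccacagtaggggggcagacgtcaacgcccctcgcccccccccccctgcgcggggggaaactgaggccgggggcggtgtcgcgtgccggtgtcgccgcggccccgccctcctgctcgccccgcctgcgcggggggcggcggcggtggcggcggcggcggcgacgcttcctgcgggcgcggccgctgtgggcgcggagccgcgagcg
G and C made up 71.7% of the *Ptprz1* window and 77.7% of the *Sdc3* window. The other 5 members with a RefSeq promoter ranged from 52.0% (*Ptn*) to 69.3% (*Ncl*), against a median of 52.7% over all 32851 promoters. The motif ACAAAG, known for Sox factors, the E-box CAGCTG and the TATA box TATAAA were searched on both strands, and none of the 3 contains another. They occur in 18.7%, 16.3% and 13.6% of all promoters, and none of them was found in the windows of the 7 matched members, so no base above is in capitals.

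The files hold 10845 barcodes and 85101211 UMIs (unique molecular identifiers, each standing for 1 captured transcript) in C-ON, and 21341 barcodes and 129113325 UMIs in FMC_new. After filtering, 8834 and 16818 cells remained, with medians of 6810.5 and 4676 UMIs, and 188 of the kept barcodes occur in both libraries. The cells fell into 37 clusters, of which 27 were named by marker genes and merged into 16 classes, while 10 clusters with 4024 cells stayed unnamed. A class is called "X-like" because its name rests on markers alone. The 13 classes present in both libraries included 214 (C-ON) and 1404 (FMC_new) tumor-like cells, 5327 and 2075 oligodendrocyte-like, 21 and 222 astrocyte-like, 103 and 492 fibroblast-like, 35 and 20 neuron-like, and 891 and 2862 T cell-like cells. Pituitary endocrine-like cells (1705), neutrophil-like cells (130) and plasmacytoid dendritic cell-like cells (46) reached the minimum of 20 cells in FMC_new alone. No class of endothelial, mural, Schwann or mast cells was formed. *Nf1* was read at 123 and 94.2 CPM (UMIs per 1000000 UMIs of the class) in the tumor-like cells and at 27.3 and 26.8 CPM in the T cell-like cells, which does not check the deletion, since reads at the 5′ end of a transcript need not lie in the deleted part.

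The tumor-like class rested on markers of oligodendrocyte progenitor cells, the cell type that this glioma resembles. Glioma cells and normal progenitors cannot be told apart by these markers, and no nerve without tumor was among the samples. *Lhfpl3* was found in 90.9% of its cells, *Pdgfra*, a growth factor receptor of progenitors, in 75.6%, and *Neu4*, a sialidase, in 66.5%. The neuron-like class was small and held 3 of the 8 neuronal markers. *Snap25*, a synaptic vesicle fusion gene, was found in 90.9% of its 55 cells, *Gad1*, the enzyme that makes GABA, in 89.1%, and *Avp*, the hormone vasopressin, in 56.4%. The retinal ganglion cell genes *Slc17a6*, *Rbpms* and *Pou4f1* had no UMI in any of these cells (0 of 55, so a share up to 5.45% is possible, which limits cells with a UMI and not cells that express the genes). Retinal ganglion cells have their cell bodies in the retina and only their axons in the nerve, and the neuron-like class was not marked by these genes. *Rbpms* was among the leading genes of an unnamed cluster of 296 cells, 286 of them from FMC_new. It stood there beside *Mia*, *Cyp2f2*, *Folr1*, *Aldh1a2* and *Krt18*, so *Rbpms* alone does not name these cells. Whether *Slc17a6* and *Pou4f1* were present in that cluster was not examined. Which cells, if any, stand for the neuronal source of midkine that the study describes cannot be told from these libraries.

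*Mdk* (ENSMUSG00000027239, chr2:91929805-91932297, minus strand on GRCm38) was high in 3 named classes and low in the other named classes. Over both libraries, the unnamed cluster of 296 cells stood above all 3 of these classes, as given under other observations. In the fibroblast-like cells *Mdk* was at 323 CPM in C-ON (95% interval 281 to 369) and 252 CPM in FMC_new (232 to 273). In the astrocyte-like cells it was at 129 CPM in C-ON, where 10 UMIs in 21 cells give an interval of 62.0 to 238, and at 333 CPM in FMC_new (295 to 373). In the tumor-like cells it was at 189 CPM (166 to 215) and 208 CPM (198 to 218). The tumor-like cells had the narrowest range between libraries of these 3 classes. The astrocyte-like range overlapped the fibroblast-like range and took in the tumor-like range. The place of the astrocyte-like cells among the 3 classes was thus not settled, while the fibroblast-like range lay above the tumor-like range. The intervals, here and throughout, are exact Poisson 95% intervals that cover counting error only.

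The neuron-like cells held 3 *Mdk* UMIs in each library, which is 10.9 CPM in C-ON and 17.3 CPM in FMC_new. Set against the T cell-like cells of the same library, these levels are 19.2 times as high (2.19 to 229) in C-ON and 4.68 times as high in FMC_new, where the interval of 0.925 to 14.7 includes 1. The tumor-like cells stood at 333 times the T cell-like level in C-ON (91.1 to 2763) and at 56.1 times in FMC_new (40.8 to 79.2). Oligodendrocyte-like cells were at 0.522 and 1.88 CPM, and T cell-like cells at 0.568 and 3.71 CPM. In the other leukocyte classes of both libraries *Mdk* lay between 0 and 5.02 CPM, with 0 UMIs in the ILC2-like cells.

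Of the tumor-like cells, 45.3% in C-ON and 50.9% in FMC_new held an *Mdk* UMI, against 0.224% and 1.26% of T cell-like cells, at median depths of 5307.5 and 3240 UMIs over both libraries. With each cell thinned to 1000 UMIs the shares were 15.7% and 17.5% in the tumor-like cells and 0% and 0.389% in the T cell-like cells. The tumor-like cells also held 44.0% of all *Mdk* UMIs in C-ON and 43.7% in FMC_new. The fibroblast-like cells held 40.1% and 16.7%, the astrocyte-like cells 1.87% and 7.93%, and the neuron-like cells 0.562% and 0.0818%. A further 5.43% and 23.2% lay in unnamed clusters. Most *Mdk* in the dissociated tissue was thus counted in cells with progenitor, fibroblast or astrocyte markers, as far as the named classes go.

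When the classes were built by another route, the fibroblast-like cells led for *Mdk* each time. They stood at 491 CPM with cells assigned 1 by 1 from their markers, at 291 and 271 CPM with coarser and finer clusters (resolutions 0.4 and 1.2), and at 272 CPM with each library clustered alone. The tumor-like cells were between 209 and 246 CPM under these 4 assignments. The astrocyte-like cells, at 316 CPM over both libraries in the first assignment, were at 197 CPM at both other resolutions, below the tumor-like cells.

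*Ptn* (ENSMUSG00000029838, chr6:36714929-36810220, minus strand) had a wider distribution that took in the myelinating cells. The astrocyte-like cells were at 1254 CPM in C-ON and 1881 CPM in FMC_new, and the fibroblast-like cells at 1321 and 1167 CPM. The tumor-like cells were at 945 and 1039 CPM, and the oligodendrocyte-like cells at 813 and 660 CPM. The ranges of the astrocyte-like and fibroblast-like classes overlapped, while those of the fibroblast-like, tumor-like and oligodendrocyte-like classes followed each other without overlap. The neuron-like cells came next, at 319 and 278 CPM.

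Oligodendrocyte-like cells held 87.8% of all *Ptn* UMIs in C-ON and 40.1% in FMC_new. A *Ptn* UMI was present in 96.3% and 91.0% of them, and in 54.5% and 46.1% after thinning. This sets the ligands apart, since the same cells were close to the T cell-like level of *Mdk*. The lead of the astrocyte-like cells depended on how the classes were built. Under the 4 other assignments the fibroblast-like cells led for *Ptn*, at 2070, 1442, 1232 and 1221 CPM in the order given above, and the astrocyte-like cells fell to 712 CPM at both other resolutions. In the main assignment, 10 of the 243 astrocyte-like cells held at least 3 endothelial markers, and *Ptn* in the class was 1821 CPM without them and 1830 CPM with them. In FMC_new it was 1891 CPM without them, but in C-ON it was 914 CPM without them and 1254 CPM with them. The C-ON level of the astrocyte-like cells without them was thus below the 945 CPM of the tumor-like cells.

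In leukocytes *Ptn* differed between the libraries. Over the 8 leukocyte classes that both libraries share, it ranged from 42.6 to 224 CPM in C-ON, with a median of 125 CPM, and from 6.92 to 34.0 CPM in FMC_new, with a median of 26.8 CPM. The 2 ranges do not overlap, and oligodendrocyte-like cells, which carry *Ptn*, made up 5327 of the 8834 cells of C-ON and 2075 of the 16818 cells of FMC_new. The share of T cell-like cells with a *Ptn* UMI was 14.3% in C-ON and 4.75% in FMC_new, and whether this is free RNA or expression was not tested. The part of free RNA in the *Ptn* of the other classes was not tested.

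Among the receptors, *Ptprz1* (ENSMUSG00000068748, chr6:22875502-23052916, plus strand) marked the tumor-like cells. It encodes the receptor phosphatase whose activity both ligands are known to inhibit. It was at 1745 CPM in C-ON (1672 to 1820) and 1583 CPM in FMC_new (1555 to 1611), in 94.9% and 86.8% of tumor-like cells. The astrocyte-like cells came next, at 608 and 602 CPM, so that the tumor-like level was 2.87 and 2.63 times higher. No other class shared by both libraries passed 29.0 CPM, the neuron-like value in C-ON.

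Thinned to 1000 UMIs, 71.9% and 66.7% of the tumor-like cells still held a *Ptprz1* UMI, against 41.2% and 40.5% of astrocyte-like and 0% and 0.779% of T cell-like cells. The tumor-like cells held 90.7% and 82.0% of all *Ptprz1* UMIs. Oligodendrocyte-like cells, which arise from progenitors of the kind the tumor-like cells resemble, were at 2.09 and 3.76 CPM. The T cell-like cells were at 3.41 and 6.46 CPM, and the tumor-like level was 512 times theirs in C-ON (292 to 992) and 245 times in FMC_new (193 to 316). Pituitary endocrine-like cells, counted in FMC_new alone, were at 98.4 CPM with a UMI in 34.1% of cells.

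*Alk* (ENSMUSG00000055471, chr17:71868972-72604627, minus strand), a receptor tyrosine kinase of the developing nervous system, was read at low levels. It led in the neuron-like cells, at 83.5 CPM in C-ON (23 UMIs, 52.9 to 125) and 75.2 CPM in FMC_new (13 UMIs, 40.0 to 129), with a UMI in 12 of 35 and 6 of 20 cells. The tumor-like cells were second, at 37.8 CPM (27.8 to 50.3) and 20.5 CPM (17.4 to 23.9), in 13.1% and 8.12% of cells. T cell-like cells held 0 UMIs in C-ON, which allows up to 0.853 CPM, and 0.665 CPM in FMC_new. Oligodendrocyte-like cells were at 3.74 and 3.18 CPM, and they held 67.5% of all *Alk* UMIs in C-ON and 16.0% in FMC_new, against 18.4% and 46.7% in the tumor-like cells. *Alk* is a long gene, and 3 annotated genes inside it on the same strand are absent from the count table, so their reads cannot be separated from its own.

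*Lrp1* (ENSMUSG00000040249, chr10:127538161-127621148, minus strand) encodes an endocytic receptor of many ligands. The fibroblast-like cells were at 341 and 263 CPM and the tumor-like cells at 283 and 257 CPM, with ranges that overlapped. At both other cluster resolutions the tumor-like cells led, with 264.5 against 261.5 CPM at 0.4 and 293 against 281.5 CPM at 1.2. Astrocyte-like cells (129 and 169 CPM), microglia-like cells (129 and 111 CPM), macrophage-like cells (80.5 and 73.4 CPM) and neuron-like cells (43.6 and 40.5 CPM) followed. Below these came a gap, as lymphoid classes and oligodendrocyte-like cells lay between 0 and 6.81 CPM.

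*Sdc3* (ENSMUSG00000025743, chr4:130792537-130826319, plus strand), the syndecan of neural cells, was highest in the tumor-like cells at 297 and 272 CPM, in 67.8% and 63.0% of cells. A group of classes followed in which neighbours overlapped. It held dendritic cell-like cells (81.1 and 59.3 CPM), macrophage-like cells (74.2 and 68.0 CPM), neuron-like cells (76.2 and 52.0 CPM) and microglia-like cells (64.3 and 57.6 CPM). The astrocyte-like cells were at 25.9 CPM in C-ON, from 2 UMIs, and at 93.7 CPM in FMC_new. T cell-like cells were at 3.13 and 3.99 CPM and oligodendrocyte-like cells at 0.979 and 1.53 CPM. The annotated genes *Gm12970* and *Gm26716* overlap *Sdc3*, and *Gm16217* overlaps *Lrp1*, each on the opposite strand.

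*Sdc4* (ENSMUSG00000017009, chr2:164424247-164443887, minus strand), the widely expressed syndecan of cell adhesions, shared several of its classes with *Sdc3* and differed most in the tumor-like cells. Fibroblast-like cells were at 223 and 155 CPM, macrophage-like cells at 190 and 178 CPM and astrocyte-like cells at 155 and 263 CPM, with overlapping ranges. The plasmacytoid dendritic cell-like cells of FMC_new were at 235 CPM. Among lymphoid classes, ILC2-like cells were at 58.9 and 96.9 CPM, plasma cell-like cells at 36.7 and 59.3 CPM and B cell-like cells at 32.9 and 45.8 CPM. The tumor-like cells were at 26.6 and 17.4 CPM, with a UMI in 4.67% and 7.34% of cells, and their range overlapped that of the NK cell-like cells at 12.95 and 22.4 CPM. The tumor-like cells were therefore high for *Sdc3* and not for *Sdc4*, and the macrophage-like cells carried both.

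*Ncl* (ENSMUSG00000026234, chr1:86344719-86359400, minus strand), the nucleolar protein of ribosome synthesis, was read in every class. Levels in 11 of the 13 classes shared by both libraries lay between 187 and 389 CPM in each library. ILC2-like cells were at 389 and 297 CPM, NK cell-like cells at 317 and 300.4 CPM, T cell-like cells at 314 and 298 CPM and neuron-like cells at 236 and 307 CPM. ILC2-like cells led in C-ON and neuron-like cells in FMC_new. The tumor-like cells, at 228 and 215 CPM, stood in the middle. Plasma cell-like cells were lowest, at 85.5 and 72.8 CPM, and the astrocyte-like cells were at 64.7 and 184 CPM. *Ncl* holds small RNA genes within its introns, which were not counted as genes of their own.

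**Figure D1:**
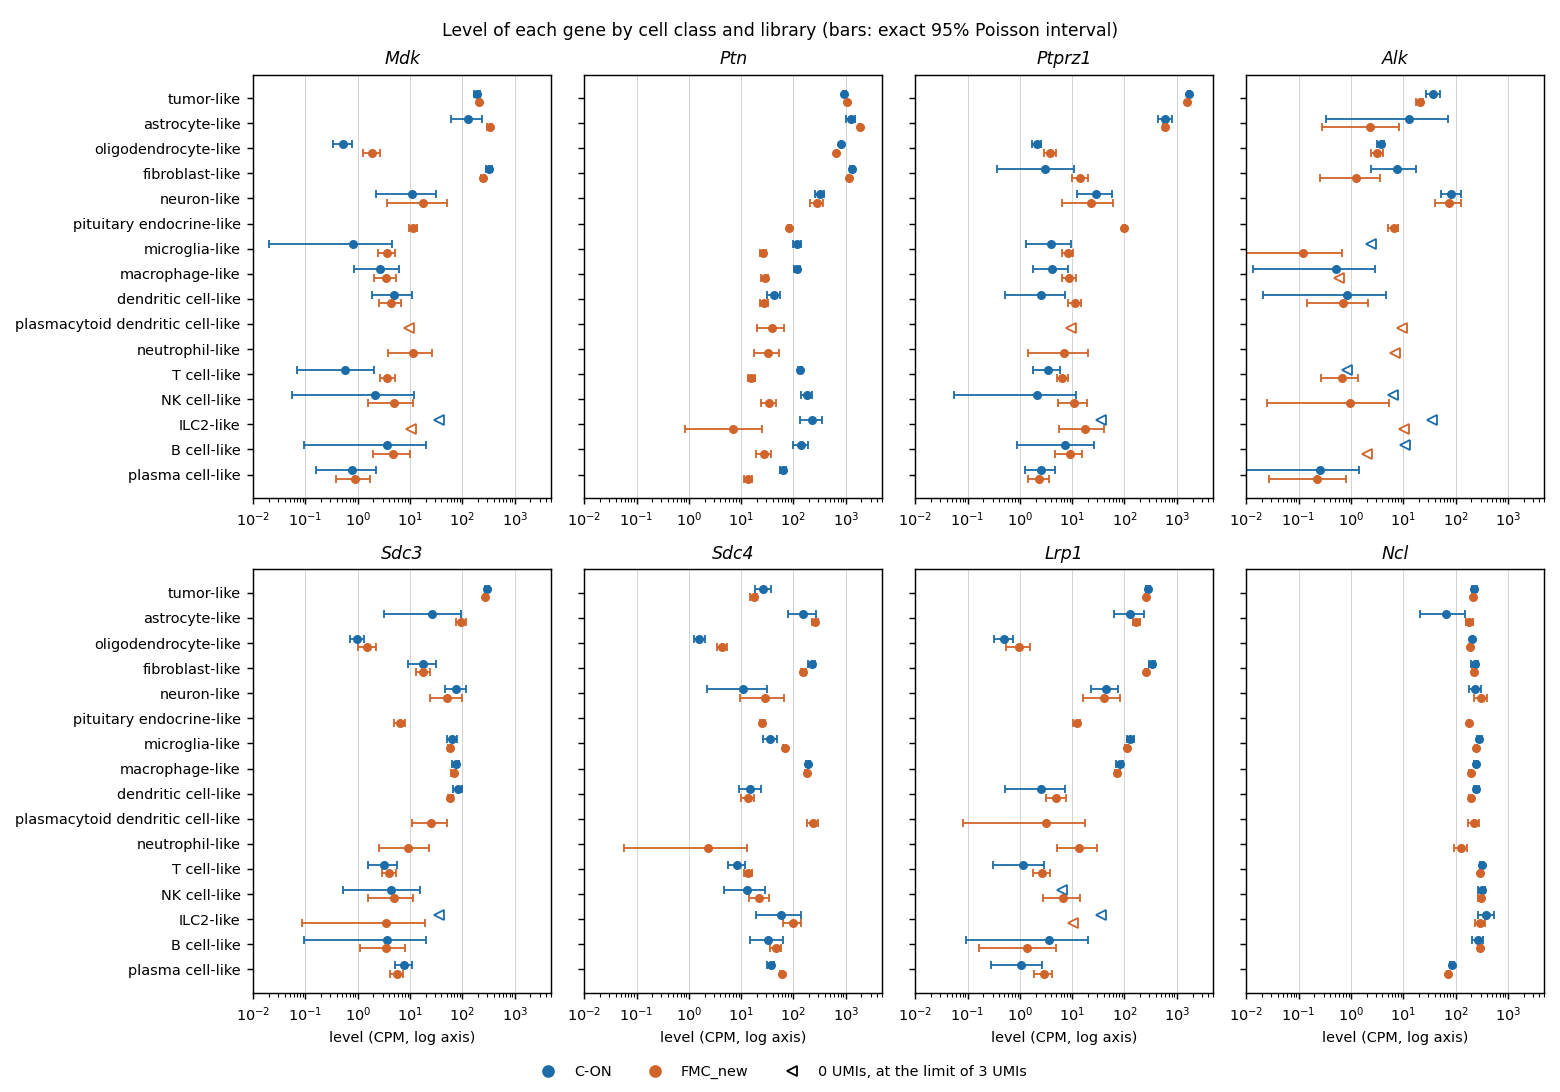
Level (horizontal, CPM on a log axis) of each of the 8 genes, 1 panel per gene, in each named cell class with at least 20 cells in the library (vertical), in blue for C-ON and orange for FMC_new. Bars are exact 95% Poisson intervals, and an open triangle marks a class with 0 UMIs at the limit that 3 UMIs would give. *Ptprz1* and *Sdc3* peak in the tumor-like cells (1745 and 1583 CPM, 297 and 272 CPM), *Alk* in the neuron-like cells, *Mdk* in tumor-like, astrocyte-like and fibroblast-like cells, and *Ncl* was read in every class.

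Set against all genes, the members were not unusually stable in which class led. Of 14168 genes with at least 50 UMIs in each library, 54.2% had the same highest class in both libraries, and so did 4 of the 8 members (*Ptprz1*, *Alk*, *Sdc3* and *Lrp1*). Of the same genes, 1.43% were at least 2 times higher in the tumor-like cells than in every other class in both libraries, as were 2 of the 8 members (*Ptprz1* and *Sdc3*). For *Ptprz1* this depended on the class assignment. In 13.7% of genes some class was at least 2 times higher than every other class, which held for 3 members, namely the same 2 genes and *Alk* in the neuron-like cells. *Mdk*, *Ptn* and *Sdc4* were highest in the fibroblast-like cells of C-ON and in the astrocyte-like cells of FMC_new. No test was made, since both libraries share 1 condition and the classes were built from the same cells.

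The tumor-like class consisted of 2 clusters of unequal depth. In FMC_new the first held 915 cells with a median of 6260 UMIs, and the second held 489 cells with a median of 2082 UMIs and was led by the immunoglobulin genes *Igkv12-41* and *Igkv9-124* beside *Lhfpl3*, *Neu4* and *Cspg5*. *Ptprz1* was at 1850 CPM in the first and 621 CPM in the second, *Ptn* at 1206 and 437 CPM, and *Mdk* at 238 and 100.2 CPM. *Sdc3* (303 and 160.5 CPM), *Lrp1* (292 and 129 CPM) and *Alk* (24.0 and 7.76 CPM) were likewise lower in the second cluster. *Ncl* was level at 214 and 217 CPM, and *Sdc4* was higher in the second cluster, at 37.0 against 11.9 CPM. The part that depth and immunoglobulin RNA play in this difference was not tested. C-ON had 198 cells in the first cluster, and there *Ptprz1* was at 1873 CPM, *Ptn* at 1011 CPM and *Mdk* at 206 CPM, close to the FMC_new values of that cluster.

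*Gpr17*, a receptor of progenitors that have begun to differentiate, was found in 103 tumor-like cells (C-ON) and in 572 (FMC_new). *Ptprz1* was at 1965 and 1857 CPM in cells with a *Gpr17* UMI and at 1523 and 1335 CPM in those without. *Ptn* was at 1087 and 1158 CPM with *Gpr17* and at 802 and 931 CPM without it, and *Mdk* at 201 and 220 CPM against 177 and 197 CPM. *Sdc3* (350 and 294 CPM against 244 and 251 CPM) and *Lrp1* (364 and 289 CPM against 202 and 228 CPM) had the same direction in both libraries. *Sdc4* had the opposite one, at 4.82 and 7.90 CPM against 48.4 and 26.0 CPM, and *Alk* had no common direction, at 22.5 and 23.4 CPM against 53.2 and 17.8 CPM. Cells with *Gpr17* were also deeper, with medians of 5596 and 6103 UMIs against 4809 and 4243, and whether depth accounts for the differences was not tested.

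Many tumor-like cells held a ligand and its receptor together. Over both libraries, 82.9% held a UMI of *Mdk* or *Ptn*, 87.9% one of *Ptprz1*, and 77.8% (75.6% to 79.8%) held both. At 1000 UMIs per cell these shares were 60.8%, 67.4% and 45.8% (43.3% to 48.3%), with 47.6% in C-ON and 45.5% in FMC_new for both together. The astrocyte-like cells followed at equal depth, with 23.5% of 17 cells in C-ON and 25.6% of 195 cells in FMC_new. Fibroblast-like cells reached 0% and 0.842%, oligodendrocyte-like cells 0.188% and 0.0976%, and T cell-like cells 0% in both libraries. Fibroblast-like and oligodendrocyte-like cells thus carried ligand without *Ptprz1*, and tumor-like and astrocyte-like cells carried both.

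At full depth, 48.1% of the tumor-like cells held UMIs of *Mdk* and *Ptn* together. *Ptprz1*, *Sdc3* and *Lrp1* were found together in 45.2% of them, in 8.23% of the astrocyte-like cells and in 0% of the T cell-like cells. Of the tumor-like cells, 8.78% held an *Alk* UMI, and 8.65% held one of *Alk* and one of *Ptprz1*. Nearly every cell with *Alk* thus had *Ptprz1* as well, but so had 87.9% of all tumor-like cells. Whether ligand and receptor meet on 1 cell or between cells cannot be read from these counts.

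**Figure D2:**
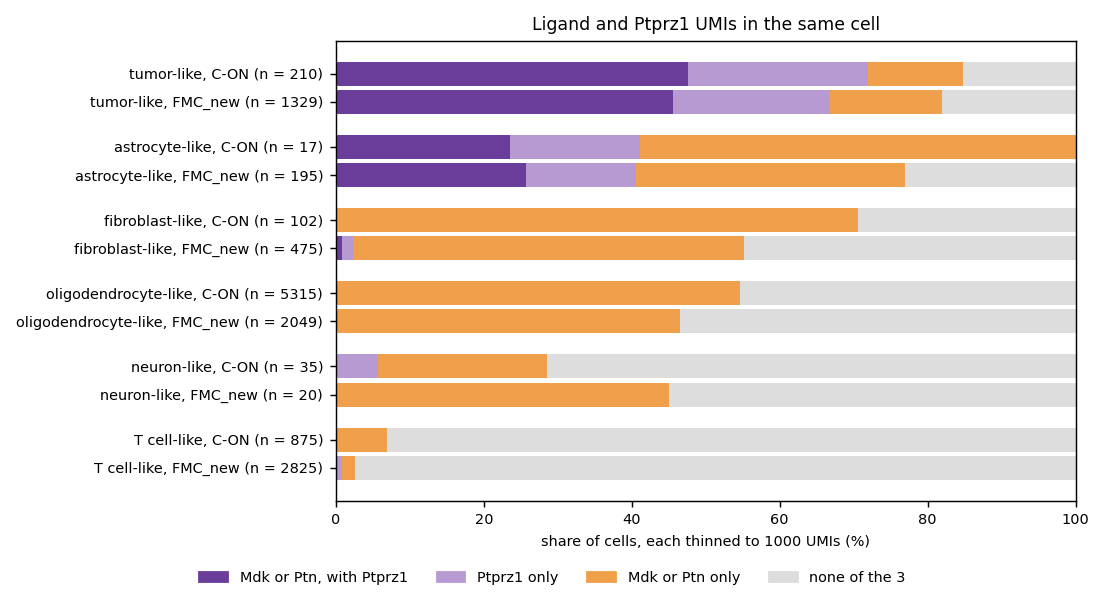
Stacked bars give the share of cells (horizontal, percent, each cell thinned to 1000 UMIs) with a UMI of *Mdk* or *Ptn* together with *Ptprz1* (dark purple), of *Ptprz1* only (light purple), of *Mdk* or *Ptn* only (orange) or of none of the 3 (grey), for 6 cell classes in each library, with the number of cells in each label. The dark part is longest in the tumor-like cells (47.6% in C-ON, 45.5% in FMC_new), shorter in the astrocyte-like cells (23.5% and 25.6%), and close to absent elsewhere.

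The circuit that the study describes has midkine act on CD8 T cells, so the T cell-like cells with a UMI of *Cd8a* or *Cd8b1* (476 in C-ON, 1517 in FMC_new) were read on their own. *Ncl* was the member they carried at a level like that of other classes, at 301 and 307 CPM, with 335 and 285 CPM in the T cell-like cells without either CD8 gene. *Lrp1* was at 0.937 and 2.53 CPM in the CD8 cells, *Sdc3* at 1.41 and 3.48 CPM, *Ptprz1* at 1.87 and 5.22 CPM, and *Alk* at 0 and 0.475 CPM. *Sdc4* was at 3.75 and 6.17 CPM in the CD8 cells and at 15.2 and 25.0 CPM in the others, higher without CD8 in both libraries. Of other partners ascribed to midkine and pleiotrophin, integrin genes were read in the CD8 cells, with *Itga4* at 381 and 451 CPM, *Itgb1* at 314 and 375 CPM and *Itgav* at 145 and 168 CPM. The CD8 cells of these libraries thus carried *Ncl* and integrin RNA, while *Ptprz1*, *Alk*, *Lrp1* and *Sdc3* lay between 0 and 5.22 CPM in them.

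The 4 chemokine genes of the circuit had the same leading class in both libraries, as had 54.2% of all genes. *Ccl5*, a chemokine made by T cells, led in the T cell-like cells at 4527 and 4813 CPM. The others led in the macrophage-like cells, with *Ccl2*, which attracts monocytes, at 1973 and 1456 CPM, *Ccl3* at 809 and 986 CPM, and *Ccl4* at 1290 and 2501 CPM. The paper's circuit has Ccl4 made by CD8 T cells, Ccl5 and Ccl3 by tumor-associated monocytes, and Ccl2 by glioma cells. By RNA level, the leading classes of *Ccl2*, *Ccl4* and *Ccl5* here were other than these sources. The paper names cells that make each chemokine and not the class with the highest RNA level, so these are unlike measures. Within the T cell-like cells, *Ccl4* was at 430 and 664 CPM with a CD8 gene and at 215 and 166 CPM without one. *Ccl5* was at 6903 and 7235 CPM against 859 and 1164 CPM, and *Ccl3* at 130 and 147 CPM against 14.5 and 20.2 CPM. The cells with CD8 genes thus had more of these 3 chemokine transcripts in both libraries. In the tumor-like cells *Ccl2* was at 60.3 and 55.6 CPM.

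Among 13 further partners of the ligands, 11 passed the filter of 50 UMIs in each library and 7 had the same leading class in both, near the 54.2% of all genes. *Cspg5*, the chondroitin sulfate proteoglycan neuroglycan C, was at 1989 and 2012 CPM in the tumor-like cells and was the 1 gene of this list at least 2 times higher there than in every other class, against 1.43% of all genes. Unlike the members, the genes of this list were not left out of the features used for clustering. *Cspg5* was a leading gene of both tumor-like clusters, so setting it against all genes is no test. *Itgav*, the integrin alpha-V chain, also led in the tumor-like cells, at 269 and 341 CPM, with 175 and 195 CPM in T cell-like and 133 and 147 CPM in oligodendrocyte-like cells. *Sdc1*, a marker of plasma cells, was at 134 and 106 CPM in the plasma cell-like cells. *Itga4*, a chain of the VLA-4 integrin, led in the B cell-like cells at 758 and 1028 CPM, and *Itga6*, a chain of laminin receptors, in the astrocyte-like cells at 116 and 69.7 CPM. Together with *Cspg5*, these 3 genes make the 4 of this list with a class at least 2 times above every other class, against 13.7% of all genes. *Itgb1* led in the NK cell-like cells at 475 and 678 CPM. *Gpc2* and *Lrp2* were under the filter.

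Of 6 other partners of *Ptprz1*, 5 passed the filter (*Tnc* did not), 4 had the same leading class in both libraries (54.2% of all genes), and 2 were at least 2 times higher in the tumor-like cells than in any other class (1.43% of all genes). These were *Cntn1*, the adhesion molecule contactin-1, at 1159 and 1030 CPM, and *Tnr*, the matrix protein tenascin-R, at 1653 and 1020 CPM. These partners too were not left out of the features used for clustering, and *Tnr* was a leading gene of a tumor-like cluster. The shares are therefore no test. *Nrcam* was at 414 and 352 CPM in the astrocyte-like cells and 367 and 258 CPM in the tumor-like cells. *L1cam*, an axonal adhesion molecule, led in the neuron-like cells at 87.1 and 133 CPM. *Ncam1* was spread over tumor-like (937 and 640 CPM), oligodendrocyte-like (841 and 799 CPM) and astrocyte-like cells (1099 and 455 CPM), and its leading class differed between libraries.

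**Figure D3:**
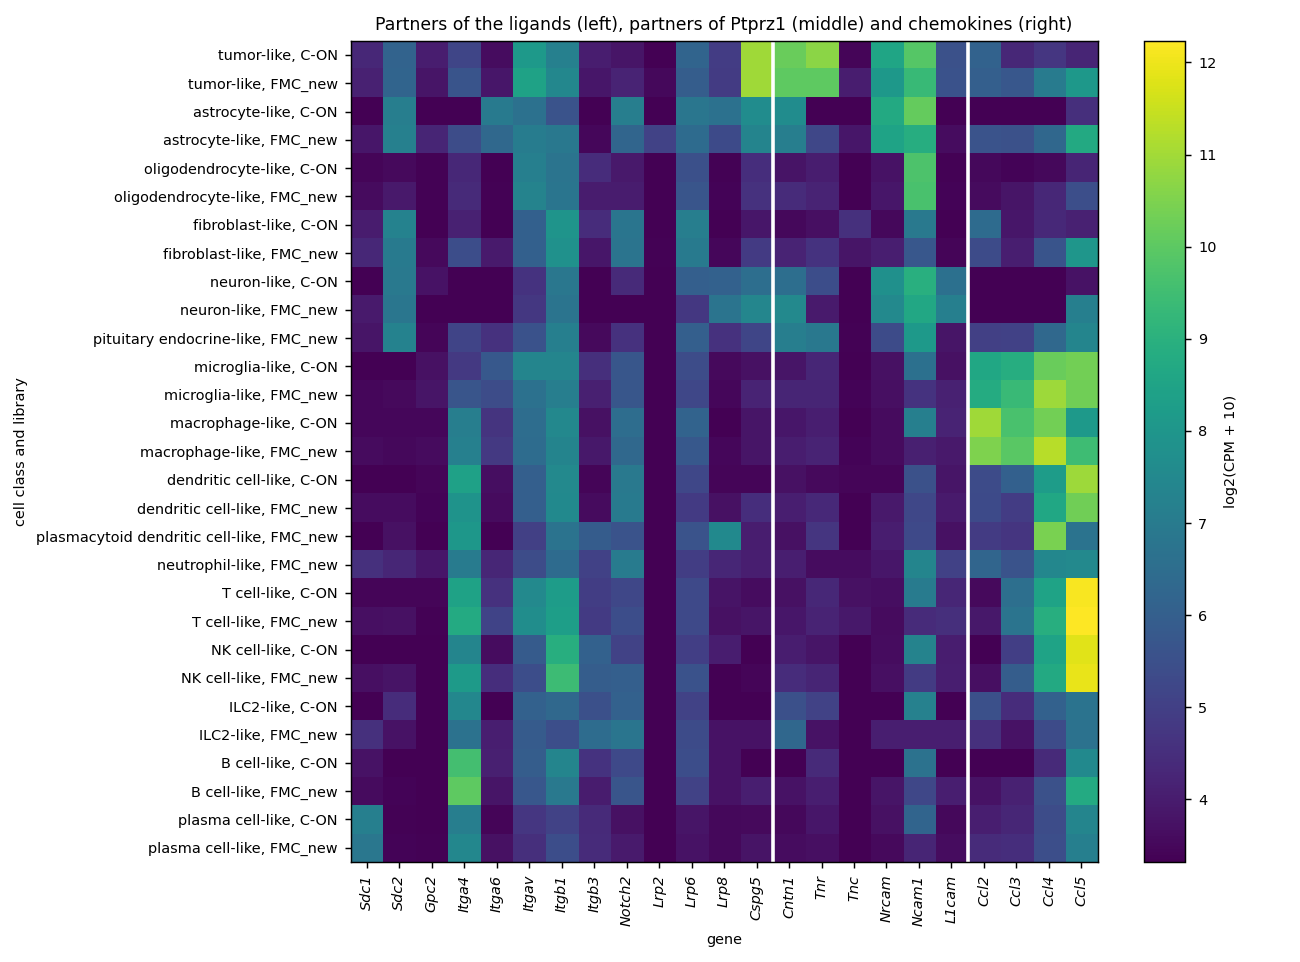
Colour gives log2(CPM + 10) of each listed partner and chemokine gene (horizontal) in each named cell class and library (vertical), from dark for low to yellow for high. White lines part the partners of the ligands, the partners of *Ptprz1* and the chemokines. *Cspg5*, *Cntn1* and *Tnr* are bright in both tumor-like rows, at 1989 and 2012, 1159 and 1030, and 1653 and 1020 CPM, and *Ccl5* is brightest in the T cell-like rows at 4527 and 4813 CPM.

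For each member but *Ncl*, the 3 genes with the most similar pattern were taken as those with the highest Pearson correlation of log2(CPM + 10) over 26 points, the 13 shared classes in 2 libraries. The points share libraries and depth, and genes of 1 class correlate by that class alone, so the values only describe likeness. *Ptprz1* was nearest to *Timp4* (r = 0.985), *Fabp7* (r = 0.98) and *Mir9-3hg* (r = 0.973). *Mdk* was nearest to *Rgs7bp*, *Prrx1* and *F3*, with r between 0.973 and 0.974, and *Ptn* to *Fat1* (r = 0.955), *Gstm5* (r = 0.949) and *Maoa* (r = 0.943). *Alk* was nearest to *Stxbp5l* (r = 0.978), *Lingo1* and *Reep2*, and *Lrp1* to *Laptm4a* (r = 0.907), *Tmem198b* and *Tspan4*. *Sdc3* was nearest to *Marcks* (r = 0.896), *Nme4* and *Ccnd1*, and *Sdc4* to *Colec12* (r = 0.806), *Blvrb* and *Mgst1*. Among these 7 members the likeness was thus highest for *Ptprz1* and lowest for *Sdc4*, whose levels followed no single group of classes.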

How the data were processed

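Single-cell 5′ RNA-seq (10x Genomics) was measured in 2 libraries. The authors aligned reads with Cell Ranger (7.2.0 per the labels and file headers) to mm10 and deposited raw UMI counts per gene and barcode, not normalized. The paper's methods name an earlier version of Cell Ranger. Whether intronic reads were counted is not given in the sources used here, and it would affect long genes such as *Alk*. Cells with 500 to 5000 genes, 500 to 20000 UMIs and at most 5% mitochondrial UMIs were kept, as in the study. The depth of the kept cells had medians of 6810.5 (C-ON) and 4676 (FMC_new) UMIs.

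Log normalization, selection of 2000 variable features, CCAIntegration of both libraries and clustering (30 components, resolution 0.8) were done in Seurat 5.3.0 (R 4.3.3), while the authors' processing notes name Seurat 5.2.1. The 8 members were left out of the variable features and are no markers. The partner and chemokine genes are no markers either, but they were not left out of the variable features. Clusters were named from lists for 22 classes, needing at least 3 markers, each in at least 20% of cells and 2 or more times as high as in the average cluster. A cluster stayed unnamed when cell cycle genes or more markers of another class than of its own led it, or when none of its own markers led it and it held the smaller part of its list, held 3 markers of another class, or had far fewer UMIs than the other cells of a library. How leading genes of other classes were weighed was settled after the leading genes had been seen. Names went to the list with the greatest proportion of markers counted, so that the neuron-like cluster, with 3 of 8 neuronal and 4 of the longer pituitary list, was named by the former. Scrublet (scanpy 1.11.5) called 1 doublet among all cells and so had not worked, and no doublets were removed in the values given. Leaving out the 1322 cells with the highest 5% of scores is an alternative chosen after seeing the data.

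Levels are CPM, the UMIs of a gene per 1000000 UMIs of a class and library. Shares of cells have Clopper-Pearson 95% intervals. Shares are also given with every cell thinned to 1000 UMIs, which 612 cells did not reach. A floor of 3 counts limits values of 0. Only counting error is covered by the intervals. With 2 libraries of 1 condition values are described and not tested. The genes named are the 8 members, lists of their partners and of chemokines, the 3 genes most like each member, and markers and leading genes of the classes described. *Avp*, *Gad1*, *Rbpms*, *Pou4f1* and the CD8 genes were named as checks or subsets. The genes most like *Ncl* are not reported here. Members and lists were chosen with earlier results of these data known. Coordinates are those of GENCODE on GRCm38, matched by gene identifier, and promoters are from RefSeq (GRCm38.p6), which matched 7 members and not *Mdk*. Python 3.11.15, numpy 2.4.6, scipy 1.17.1 and pandas 2.3.3 were used, and the step that finds genes higher in 1 class was tested on simulated counts.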

Additional observations from a re-analysis of the deposited data

Results flagged for a closer look

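All 8 genes were also counted in the 6534 barcodes that the cell filter removed, which none of the comparisons uses. *Mdk* was at 20.03 CPM in the removed barcodes and 25.5 CPM in the kept cells, and *Ptn* at 279.9 and 428 CPM. Among the receptors, *Ptprz1* was at 73.41 and 105 CPM, *Sdc3* at 16.95 and 30.02 CPM, *Sdc4* at 35.21 and 39.6 CPM, *Lrp1* at 28.37 and 34.9 CPM and *Ncl* at 162.9 and 207 CPM. *Alk* was at 5.866 CPM in the removed barcodes and 3.60 CPM in the kept cells, the 1 member higher in the removed barcodes of both libraries (6.62 against 3.88 CPM in C-ON, 5.38 against 3.41 CPM in FMC_new). In C-ON alone *Lrp1* (23.1 against 15.7 CPM) and *Mdk* (8.99 against 8.12 CPM) were also higher there. The cell types of the removed barcodes were not assigned.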

How the results depend on the processing

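Of the values recomputed under other settings, 65 stayed within 1 SD of the 2 libraries (for counts of genes, within 1.5 times) and 48 moved. These counts do not measure stability, since several outcomes were set beforehand. Removal of the 1 called doublet changed no value, and shares change with depth. Leaving out a library was judged by the SD of the same 2 libraries. No leading class of *Ptprz1* or *Sdc3* changed under another class assignment, though the lead of *Ptprz1* over astrocyte-like cells was smaller. Over both libraries, tumor-like and astrocyte-like cells were at 2021 and 1325 CPM with cells assigned 1 by 1 from markers. They were at 1631 and 917 CPM at resolution 0.4, and at 1634 and 940 CPM with each library clustered alone. These leads were under 2 times, while at resolution 1.2 (1854 and 917 CPM) the lead was just over 2 times. With cells assigned 1 by 1 from markers, *Ptn* in astrocyte-like cells was 1256 CPM, *Ptprz1* in tumor-like cells 2021, *Sdc3* in tumor-like cells 333, *Sdc4* in astrocyte-like cells 494 and *Lrp1* in fibroblast-like cells 418 CPM, and with a looser cell filter as well they were 1166, 1944, 316, 427 and 451 CPM. *Ptn* in astrocyte-like cells was 712 CPM at resolution 0.4, 712 at 1.2 and 782 with each library clustered alone. At resolution 1.2 *Ptprz1* was 1854 and *Sdc3* 305 CPM. *Alk* in neuron-like cells was 89.2 CPM as a mean over cells.

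With 1 library left out, leaving single libraries and no test, *Mdk* in astrocyte-like cells ranged from 129 to 333 CPM, *Ptn* there from 1254 to 1881 and *Sdc4* there from 155 to 263, *Ptprz1* in tumor-like cells from 1583 to 1745 and *Sdc3* there from 272 to 297, *Lrp1* in fibroblast-like cells from 263 to 341, *Ncl* in ILC2-like cells from 297 to 389 and *Alk* in neuron-like cells from 75.2 to 83.5 CPM. The shares of tumor-like cells with a UMI at 1000 UMIs ranged from 15.7% to 17.5% for *Mdk*, 55.2% to 56.7% for *Ptn*, 66.7% to 71.9% for *Ptprz1*, 2.41% to 2.86% for *Alk*, 23.0% to 27.6% for *Sdc3*, 1.35% to 1.43% for *Sdc4*, 21.2% to 23.3% for *Lrp1* and 18.8% to 23.3% for *Ncl*. Thinned to 500 UMIs, the shares were 9.21% (*Mdk*), 35.8% (*Ptn*), 45.4% (*Ptprz1*), 0.989% (*Alk*), 12.5% (*Sdc3*), 0.680% (*Sdc4*), 12.5% (*Lrp1*) and 10.3% (*Ncl*), and without thinning 50.2%, 80.8%, 87.9%, 8.78%, 63.7%, 6.98%, 60.4% and 60.5%, since a share rises with depth. With a fold limit of 4 in place of 2, 96 genes and not 203 stood out in the tumor-like cells. The cause of the other changes was not tested.

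*Alk* in neuron-like cells had no value under marker assignment, and *Ncl* in ILC2-like cells none at resolution 0.4, as these classes were not formed. No paired analysis was possible because both libraries belong to 1 group and no test was made. Depth limits *Alk* most, with 593 UMIs in all kept cells, and the 21 astrocyte-like cells of C-ON limit every value of that class.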

Other observations

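An unnamed cluster of 296 cells, 286 of them from FMC_new and led by *Mia*, *Cyp2f2*, *Rbpms*, *Folr1*, *Aldh1a2* and *Krt18*, had 3 astrocyte markers, none of them among its leading genes. *Mdk* stood at 454 CPM in it over both libraries, beside 316 CPM in the astrocyte-like and 267 CPM in the fibroblast-like cells. *Sdc4* was at 509.7 CPM and *Ptn* at 364 CPM in the same cluster, while *Ptprz1* was at 52.4 CPM. These cells thus held ligand with less *Ptprz1* than the astrocyte-like cells (603 CPM) and more than the fibroblast-like cells (12.0 CPM). Their *Ptn* was below the 1200 CPM of the fibroblast-like cells. A cluster of 335 cells led by the cell cycle genes *Ube2c*, *Pclaf*, *Mki67* and *Top2a* had *Ncl*, a gene of ribosome synthesis, at 403 CPM, beside 318 CPM in the ILC2-like cells.

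The pituitary endocrine-like cells, which came almost wholly from FMC_new, were not alike for *Ptprz1*. It was at 152 CPM in a cluster led by genes such as *Pomc* and *Tbx19* of corticotroph cells, at 67.4 CPM in a second, shallower cluster with the same genes, at 60.7 CPM in the cluster led by the hormone genes *Gh* and *Prl*, and at 36.9 CPM in another, led by *Chga*. *Alk* was at 16.4 CPM in the *Gh* and *Prl* cluster and at 1.26 CPM in the first. These values describe 1 library, and both growth factor receptors were lower there than in the tumor-like cells of the same library (1583 and 20.5 CPM).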
